A study of Drosophila melanogaster with 16 samples.

Results

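The difference between the effect of gcm in purified neuroectodermal cells and its effect in whole Drosophila embryos was measured for all 13966 probe sets of the array that are not manufacturer's controls, of 14010 in all. For each probe set, the log2 change from control to gcm embryos in whole embryos was subtracted from the same change in purified cells. This quantity is called the interaction here: above 0, the change was more positive in purified cells, and below 0 it was more positive in whole embryos. No probe set was chosen by its values, and 14 of the 16 deposited arrays entered the comparison.

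All embryos were at stage 11, and transcripts were read from total RNA on Affymetrix Drosophila arrays. Sorted control cells (4 arrays) were neuroectodermal cells of wild-type embryos marked with mCD8-GFP (a mouse surface antigen joined to green fluorescent protein) and were taken from dissociated embryos with magnetic beads against mCD8. Sorted gcm cells (labelled scagcm; 3 distinct arrays, replicates 1, 2 and 4) were purified the same way from embryos that overexpressed gcm. Whole control (3 arrays, replicates 1, 2 and 4) and whole gcm (4 arrays) are the same kinds of embryo without purification, and the driver of gcm is not given in the sources used. The arrays deposited as sorted gcm 2 and 3 were the same in all 14010 probe sets, so they count as 1 array. Whole control 3, as labelled, did not enter, because its profile had a mean correlation of 0.931 with the sorted arrays and 0.690 with the other whole embryo arrays, against 0.949 to 0.968 among whole embryo arrays. Its values are given beside the called genes and the main genes named below where they stand apart.

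Glial cells missing (gcm) encodes a transcription factor that switches neural precursors of the fly embryo from the neuronal to the glial fate. It turns on repo, a homeobox gene expressed in nearly all glia outside the midline, and it also acts in embryonic hemocytes, the macrophage-like blood cells, with its paralog gcm2. A whole embryo mixes neuroectoderm with mesoderm, gut, trachea, epidermis and germ cells, so a transcript made in the neuroectoderm and elsewhere is read against the sum of all its sources. In such bulk samples, more cells of a type and more transcript per cell cannot be told apart.

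The summed intensity of 4 neuronal markers was 4500 to 7468 in sorted controls, 2515 to 3174 in sorted gcm cells, 355 to 877 in whole controls and 286 to 536 in whole gcm embryos. That of 5 glial markers was 1758 to 2257 in sorted controls, 3734 to 5149 in sorted gcm cells, 524 to 775 in whole controls and 630 to 993 in whole gcm embryos. Both sums were higher in sorted than in whole controls and separated the sorted groups, while the whole embryo groups overlapped. The members did not move together. In sorted cells the log2 change with gcm was -1.92 for nerfin-1, -1.17 for fne, -0.13 for elav and 0.25 for futsch. Among the glial markers it was 2.46 for repo, 1.88 for moody and 0.65 for loco, but -0.44 for wrapper and -0.56 for nrv2. The sums of hemocyte (5), mesoderm (2 of 5 measured), germ cell (3), salivary gland (1 of 3) and tendon (1) markers overlapped between sorted and whole controls. The 5 neuroblast markers gave 4477 to 6669 in sorted against 1523 to 2535 in whole controls. For trachea, 1 of 2 markers was measured, with 267.8 to 344.1 against 115.5 to 133.9. The 4 endoderm and amnioserosa markers were lower in sorted controls, with 882.3 to 1256 against 1268 to 1338. The 5 hemocyte markers gave 207 to 678 in sorted controls, 210 to 273 in sorted gcm cells, 260 to 451 in whole controls and 190 to 380 in whole gcm embryos. Levels are given as log2(intensity + 16) after normalisation, a scale on which 5 corresponds to an intensity of 16, close to background, and the highest level on the arrays was 13.42. The actin control probes read more 3' than 5' signal in sorted cells, with log2 ratios of 1.63 ± 0.06 (SD, n = 4) in controls and 1.89 ± 0.26 (SD, n = 3) in gcm cells, than in whole embryos, with 0.91 ± 0.24 (SD, n = 3) and 0.86 ± 0.30 (SD, n = 4). The GAPDH probes went the other way, with -0.13 and -0.24 in sorted controls and sorted gcm cells against 0.96 and 0.52 in whole controls and whole gcm embryos, and the EIF-4A probes differed little, with 1.04 and 0.98 against 1.12 and 1.08. The part of these ratios in the results was not tested.

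The effect of gcm differed between the preparations in 4 of 13966 probe sets, 0.0286%, at a limma adjusted p under 0.05, and in all 4 the change was more positive in sorted cells. They are Ect3, MFS16, Sardh and CG3841, and none had a more negative change in sorted cells. At an unadjusted p under 0.05 there were 1468 probe sets, 10.5%, of which 785 (5.62%) had positive and 683 (4.89%) negative interactions. The effects on which the interaction rests were called in 108 probe sets (0.773%) in sorted cells, 71 of them higher with gcm (0.508%) and 37 lower (0.265%), and in 62 (0.444%) in whole embryos, 51 of them higher (0.365%) and 11 lower (0.0788%). On the values as deposited the sorted calls were 49 higher and 9 lower, those with median centring 43 higher and 11 lower, and the whole embryo calls on deposited values 14 higher and 13 lower. With the replicate number as a block the whole embryo calls were 43 or 110, depending on whether the duplicated array counted as replicate 2 or 3.

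The interaction has a larger error than either effect, because it adds the errors of 4 group means. Its median standard error was 0.33 against 0.23 for each effect, and the median 95% interval reached 0.70 to either side. The interactions were centred on 0, with a median of 0.01 and 50.7% of probe sets above 0, and the central 95% of them lay between -0.96 and 0.88. Probe sets that missed the threshold may therefore differ between the preparations by amounts that this number of arrays could not show. Across probe sets the effects in the preparations had a Pearson correlation of 0.11 and a Spearman correlation of 0.06, a description of all 13966 points, most of which changed little in either preparation and which share 1 normalisation.

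**Figure D1:**
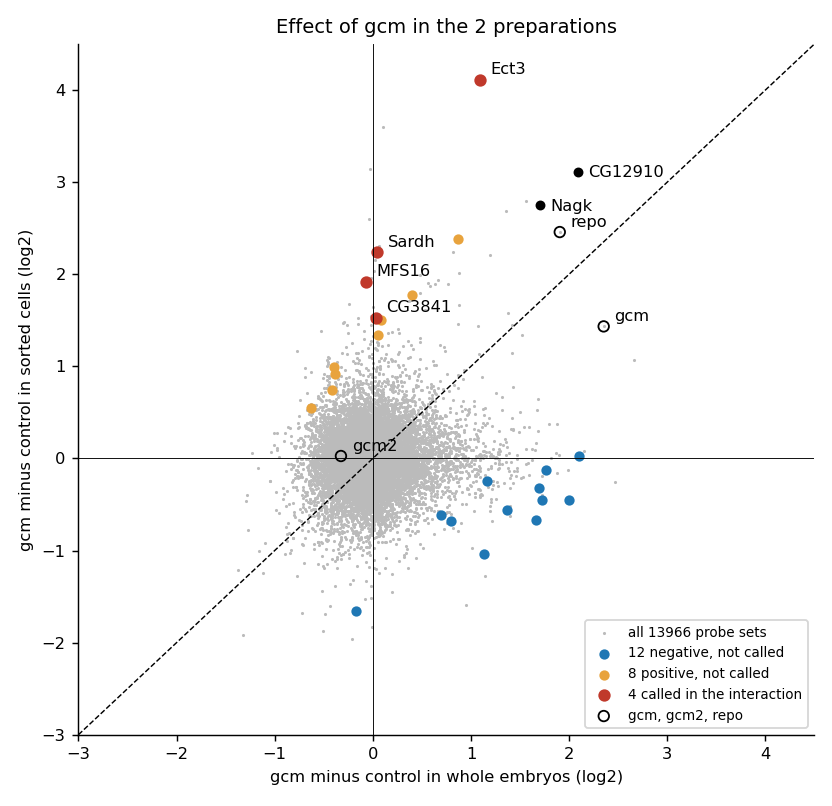
Change from control to gcm on the log2 scale in whole embryos (horizontal) and in sorted cells (vertical) for each of 13966 probe sets, with the line of equal change dashed. The 4 called genes lie above the line, Ect3 at 4.11 in sorted cells and 1.09 in whole embryos, while the 12 negative genes, none of them called, lie below it, most of them to the right of 0.

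Ect3, which encodes a protein of the beta-galactosidase family, had the largest interaction among the called genes (probe set 153367_at). Its level was 8.74, 8.19, 8.26 and 7.68 in sorted controls and 12.21, 12.42 and 12.37 in sorted gcm cells. In whole embryos it was 8.16, 7.93 and 8.63 in controls and 9.68, 9.15, 9.41 and 9.08 with gcm. The gcm arrays were above all controls in both preparations, and both control groups lay around the same level, so the preparations parted with gcm. Ect3 rose by 4.11, a 17.3-fold change, in sorted cells and by 1.09, a 2.13-fold change, in whole embryos (limma adjusted p = 7.25e-08 and 0.0488). The interaction was 3.02 (SE 0.32, 95% interval 2.34 to 3.71, limma adjusted p = 0.00111), a ratio of the folds of 8.14. The array labelled whole control 3 read 11.20 for Ect3, and with it kept the interaction was 3.74 with an adjusted p of 0.281. Ect3 was called in the other 26 of 27 alternative settings, each left-out array included.

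MFS16, a transporter gene of the major facilitator superfamily, followed another pattern (147615_at). Its level was 5.67, 6.19, 6.34 and 5.85 in sorted controls and 7.92, 7.95 and 7.93 in sorted gcm cells. Whole controls read 8.47, 8.10 and 8.26, and whole gcm embryos 8.36, 8.16, 8.23 and 8.07. Sorted controls were the low group, and sorted gcm cells came near the level of whole embryos, whose groups overlapped. The change was 1.92 in sorted cells (3.78-fold, adjusted p = 1.84e-05) and -0.07 in whole embryos (adjusted p = 0.978). The interaction of 1.99 (SE 0.24, 95% interval 1.47 to 2.51, limma adjusted p = 0.00332) was called in all 27 alternative settings, with values of 1.43 to 2.29. The array labelled whole control 3 read 8.12, within the range of the whole embryo arrays.

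Sardh encodes sarcosine dehydrogenase, a mitochondrial enzyme that turns sarcosine into glycine (152764_at). Its level was 4.73, 5.27, 4.71 and 4.75 in sorted controls and 6.50, 7.53 and 7.27 in sorted gcm cells. Whole controls read 4.88, 4.88 and 4.90 and whole gcm embryos 4.91, 5.0, 5.0 and 4.81. The signal stood clear of background in sorted gcm cells, and the other 3 groups lay at or close to it. The interaction was 2.19 (SE 0.34, 95% interval 1.46 to 2.92, limma adjusted p = 0.0348), with changes of 2.24 in sorted cells and 0.04 in whole embryos. Where both whole embryo groups are near background, a change of this probe set below that level could not be read.

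CG3841 was the faintest of the 4 (146095_at). It read 4.20, 4.30, 4.58 and 4.49 in sorted controls, 6.12, 5.46 and 6.18 in sorted gcm cells, 4.13, 4.27 and 4.06 in whole controls and 4.21, 4.16, 4.19 and 4.17 in whole gcm embryos. All arrays other than the sorted gcm arrays were below 5. The interaction was 1.5 (SE 0.23, 95% interval 1.0 to 2.0, limma adjusted p = 0.0348). Its size is set by the pseudocount, because 3 of the 4 groups are below background: it was 2.72 with a pseudocount of 1 and 0.65 with one of 64, and that of Sardh 3.06 and 1.26. Sardh and CG3841 lay close to the threshold. Sardh was called in 12 of the 26 alternative settings that tested it and CG3841 in 8, and with the replicate block their adjusted p-values were 0.127 or 0.104 and 0.127 or 0.126. The array labelled whole control 3 read 5.61 for Sardh and 5.0 for CG3841, above the other whole controls in both.

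**Figure D2:**
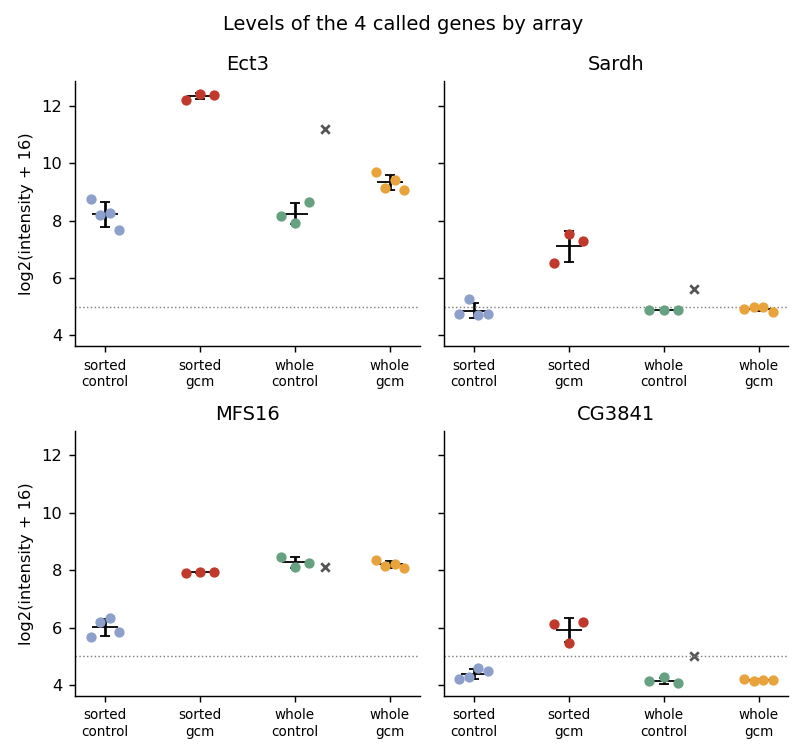
Level of the 4 called genes on each array, as log2 of normalised intensity plus 16, with the mean and SD of each group in black, the array labelled whole control 3 as a cross and the background level of 5 dotted. Ect3 had nearly equal control levels in the preparations, and MFS16 was low in sorted controls alone. Sardh and CG3841 stood clear of background in sorted gcm cells alone among the groups compared, with Sardh at 5.27 in sorted control 2.

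The number of called interactions depended on single arrays. It was 64, of which 23 were positive and 41 negative, without whole gcm 1, 15 (4 positive, 11 negative) without whole control 2, 14 (10 positive, 4 negative) without sorted control 4 and 7 without sorted gcm 2. It was 2 without sorted control 1 or 3, whole control 1 or 4, or whole gcm 2, 3 or 4. Sardh lost its call without sorted control 1 or 3, sorted gcm 4, whole control 1 or 4, or whole gcm 2, 3 or 4, and CG3841 without any of these and also without sorted control 2, sorted gcm 1 or whole control 2. The whole embryo count fell to between 10 and 39 without any 1 of sorted control 1, 2 or 3, sorted gcm 1 or 4, whole control 1 or 4, or whole gcm 2, 3 or 4, and was 199 without whole control 2 and 462 without whole gcm 1. The sorted count was 183 without sorted control 4 and 56 without sorted gcm 2.

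Below the threshold, 8 further genes with positive interactions were taken in order of p, with no call at an adjusted p of 0.0988 to 0.130. They include epsilonCOP, a subunit of the COPI coat of Golgi vesicles, with an interaction of 1.39 (SE 0.25), GCS2beta, the noncatalytic subunit of the glycoprotein-trimming glucosidase of the endoplasmic reticulum, with 1.18 (SE 0.22), and NimC4, an engulfment receptor through which embryonic glia and macrophages take up apoptotic cells, with 1.29 (SE 0.24). The other genes were vig2 (1.16), CG30344 (1.38), CG11670 (1.42), CG11902 (1.52) and Ufc1, an enzyme that conjugates the ubiquitin-like protein Ufm1 (1.30). In these 8 and the 4 called genes the sorted control and sorted gcm levels did not overlap, which holds for 9.09% of all probe sets, and since they were taken by their interaction nothing is read from it.

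NimC4 read 9.11, 8.85, 8.64 and 9.15 in sorted controls and 10.02, 10.42 and 10.39 in sorted gcm cells, against 9.87, 9.52 and 9.87 in whole controls and 10.07, 9.59, 9.81 and 9.75 in whole gcm embryos. Like MFS16, it was lowest in sorted controls, and the whole embryo groups overlapped. Its change was 1.34 in sorted cells (limma adjusted p = 0.000633) and 0.05 in whole embryos (limma adjusted p = 0.988).

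CG11902 read 8.70, 8.46, 8.57 and 8.66 in sorted controls, 11.14, 10.47 and 11.35 in sorted gcm cells, 6.48, 6.44 and 6.12 in whole controls and 7.71, 7.28, 6.95 and 6.90 in whole gcm embryos. Its gcm arrays were above the controls in both preparations, with a change of 2.39 in sorted cells (limma adjusted p = 1.86e-05) and 0.86 in whole embryos (limma adjusted p = 0.0830). On the array labelled whole control 3 CG11902 was at 10.42 and CG30344 at 9.22, above the other whole controls, and with it kept their interactions were 2.54 and 1.79, neither of them called. In epsilonCOP, vig2, GCS2beta and Ufc1 the change in whole embryos was below 0, between -0.63 for GCS2beta and -0.38 for Ufc1, and it was called in none of them. Ufc1, for example, read 5.72, 5.64, 5.93 and 5.45 in sorted controls, 6.38, 6.70 and 6.72 in sorted gcm cells, 9.81, 9.35 and 9.71 in whole controls and 9.24, 8.83, 9.54 and 9.36 in whole gcm embryos, so it was far higher in whole embryos whatever the genotype.

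The 12 genes with the smallest p among negative interactions were not called either, with adjusted p-values of 0.125 to 0.157. In 11 of them, all but Ank2, the level was higher in whole gcm embryos than in whole controls, and the change was called in whole embryos for 7. Kcmf1, a ubiquitin ligase gene, read 5.10, 5.24, 5.14 and 4.98 in sorted controls and 4.52, 4.94 and 4.54 in sorted gcm cells, against 6.32, 7.76 and 6.62 in whole controls and 8.12, 9.50, 8.91 and 9.07 in whole gcm embryos. Its interaction of -2.44 had a 95% interval of -3.43 to -1.46 (limma adjusted p = 0.125).

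Several of these genes are known for products laid down in the egg. Torso (tor), the receptor tyrosine kinase that patterns the ends of the early embryo, read 4.22, 4.47, 4.29 and 4.45 in sorted controls, 4.25, 4.20 and 4.25 in sorted gcm cells, 5.17, 6.42 and 5.39 in whole controls and 6.85, 7.74, 7.55 and 7.56 in whole gcm embryos, an interaction of -1.89 (SE 0.41, limma adjusted p = 0.131). Swallow (swa), needed to localise bicoid RNA, read 5.38, 5.29, 5.51 and 6.25, then 4.92, 4.71 and 5.18 in the sorted groups, and 6.42, 7.29 and 6.18, then 7.30, 8.79, 8.56 and 8.53 in the whole embryo groups, an interaction of -2.34 (SE 0.50, limma adjusted p = 0.131). A second probe set of swa had means of 5.83 in sorted controls and 5.04 in sorted gcm cells. In whole controls and whole gcm embryos its means were 4.29 and 4.74, below background, and its change of 0.45 there was not called. Its interaction was -1.23. Sorted levels of tor were below background and those of the first swa probe set mostly close to it. The whole gcm arrays were above all other arrays for both of these probe sets. Of the others, CG3618 (-2.08), rtet (-2.16) and mol, a maturation factor of the dual oxidase (-2.18), were near background in sorted gcm cells. Tnpo, a nuclear import receptor (-2.01, and -0.99 at its second probe set), and Abp1, an actin-binding protein (-1.41), were well above it. Gdap2 (-1.93), Pisd, the mitochondrial phosphatidylserine decarboxylase (-1.30), and CG7156 (-1.48) complete the 11. The sorted means of Gdap2, 4.95 in controls and 4.39 with gcm, were below background, and those of Kcmf1, 5.12 and 4.67, were close to it.

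Whole gcm 1 had the lowest level of the 4 whole gcm arrays, and whole control 2 the highest of the 3 whole controls, in 11 of the 12. Without whole gcm 1, the interaction was called in 11 of the 12, all but Ank2, and in 7 of the 8 positive genes described above as not called. The share of all probe sets with this order of arrays was not counted. Since the genes were taken by the p of their interaction, nothing is read from these counts. What sets whole gcm 1 and whole control 2 apart from the other arrays was not tested.

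Ank2, which encodes the neuronal ankyrin that links membrane proteins to the axonal cytoskeleton, differed from the other 11. It read 6.57, 6.57, 6.62 and 6.35 in sorted controls and 4.86, 4.91 and 4.85 in sorted gcm cells, and between 4.02 and 4.89 in whole embryos of either genotype. Its level fell by 1.65 in sorted cells (limma adjusted p = 0.000788) and was near background elsewhere, with an interaction of -1.49 (SE 0.31, limma adjusted p = 0.130). The other 3 probe sets of Ank2 had interactions of 0.46, -0.47 and -0.35, so the value belongs to 1 of its 4 probe sets.

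**Figure D3:**
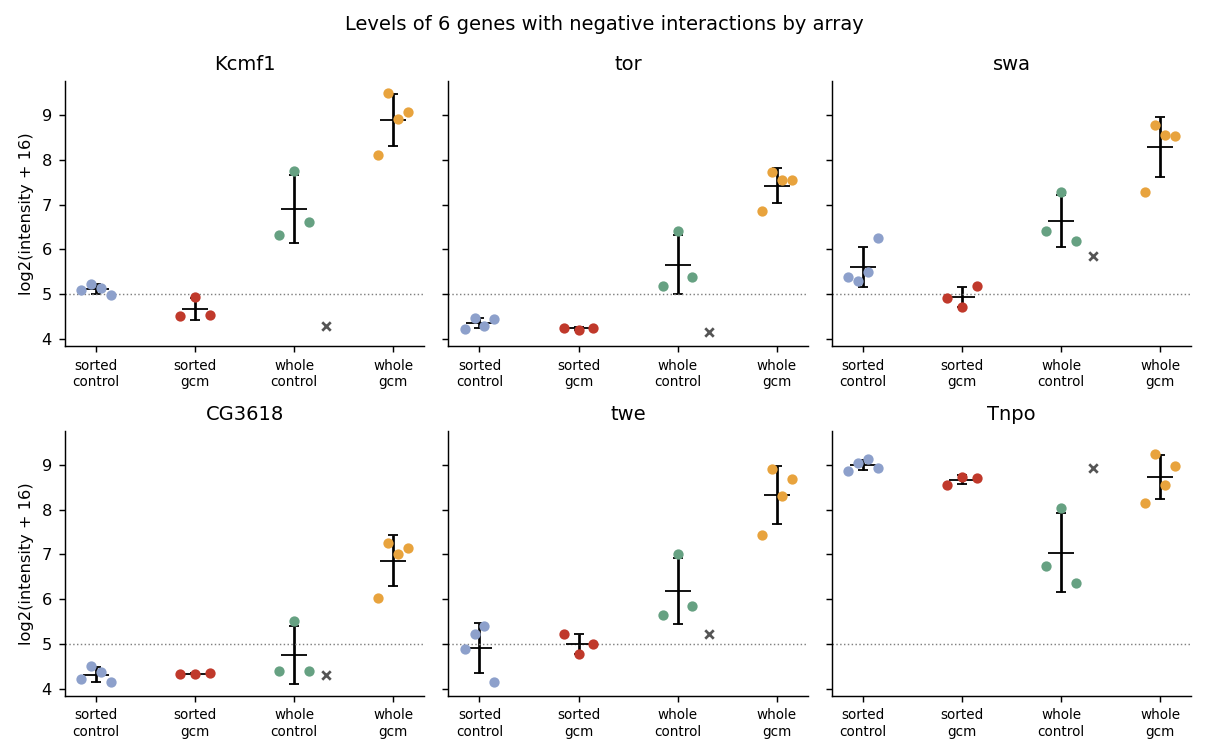
Level of 6 genes with negative interactions on each array, as log2 of normalised intensity plus 16, with the mean and SD of each group in black, the array labelled whole control 3 as a cross and the background level of 5 dotted. Whole gcm embryos were above whole controls, with whole control 2 the highest control and whole gcm 1 the lowest gcm array, and the sorted groups lie closer to each other than the whole embryo groups. Twe was among the 6 largest rises in whole embryos and is shown with 5 of the 12 genes.

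The gcm transcript itself read 12.12, 11.50, 11.73 and 11.29 in sorted controls, 13.15, 13.04 and 13.10 in sorted gcm cells, 8.69, 8.46 and 8.10 in whole controls and 11.25, 10.65, 10.65 and 10.53 in whole gcm embryos. It was higher with gcm on every array of both preparations, and sorted controls already stood above whole gcm embryos. The rise was 1.43 in sorted cells and 2.35 in whole embryos (limma adjusted p = 0.00321 and 6.4e-05), and the interaction of -0.92 (SE 0.31, 95% interval -1.58 to -0.26) was not called, with an adjusted p of 0.272. Sorted gcm levels were close to the highest level of the arrays, 13.42, and on the values as deposited the interaction of gcm was -0.31. The array labelled whole control 3 read 13.10 for gcm, in the range of sorted gcm cells, and with it kept the interaction was 0.29. For the paralog gcm2 no change was called in either preparation, with an interaction of 0.35 (95% interval -0.27 to 0.97, limma adjusted p = 0.763).

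Repo, the glial target, rose in both preparations. It read 8.92, 8.39, 8.79 and 8.0 in sorted controls, 10.93, 10.71 and 11.32 in sorted gcm cells, 6.33, 6.15 and 6.19 in whole controls and 8.36, 8.05, 8.39 and 7.71 in whole gcm embryos. The groups did not overlap within a preparation, and the rises of 2.46 in sorted cells and 1.91 in whole embryos gave an interaction of 0.55 (SE 0.32, 95% interval -0.12 to 1.23, limma adjusted p = 0.591). Repo was at 10.77 on the array labelled whole control 3, in the range of sorted gcm cells, and with it kept the interaction was 1.70 (SE 1.10, limma adjusted p = 0.883).

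**Figure D4:**
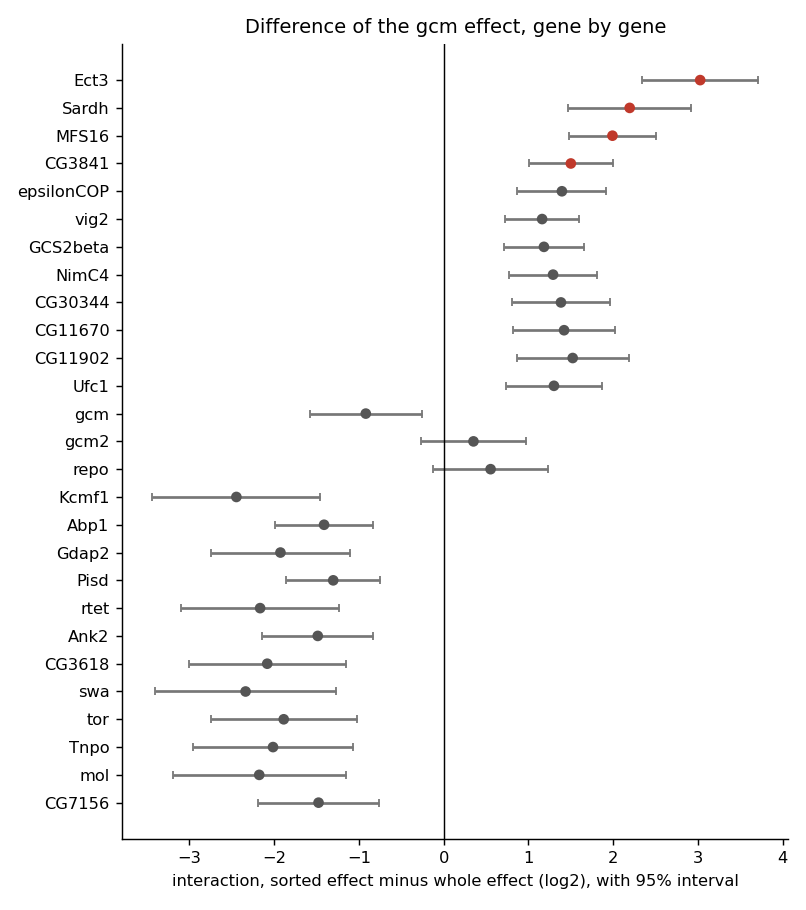
Interaction, the sorted effect minus the whole embryo effect on the log2 scale, with its 95% interval, for the 12 positive genes, gcm, gcm2 and repo, and the 12 negative genes. Red points are the 4 called genes. The intervals of the positive and negative genes exclude 0 because they were taken by p, and those of gcm2 and repo include it.

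Genes called for gcm in 1 preparation mostly had a change of the same sign in the other, with a smaller median. Of the 71 probe sets that rose in sorted cells, 57 (80.3%) had a positive change in whole embryos, against 46.4% of all probe sets, and their median change was 1.23 in sorted cells and 0.27 in whole embryos. Of the 37 that fell, 32 (86.5%) were also below 0 in whole embryos, against 53.6% of all, with medians of -1.11 and -0.36. Of the 51 that rose in whole embryos, 33 (64.7%) were above 0 in sorted cells, against 48.7% of all, with medians of 1.41 and 0.05. Of the 11 that fell in whole embryos, 9 (81.8%) were below 0 in sorted cells, against 51.3% of all, with medians of -1.10 and -0.49. A call favours a large value where it was made, so these medians are given as a description.

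Both effects were called in 14 probe sets, 13.0% of the sorted calls and 22.6% of the whole embryo calls, and they had the same direction in all 14. The difference was larger in sorted cells in 11 of them. For Nagk, the kinase that recycles N-acetylglucosamine, the rises were 2.75 and 1.70, an interaction of 1.05 (SE 0.22, 95% interval 0.58 to 1.52, limma adjusted p = 0.131). The unadjusted 95% interval of the interaction was above 0 as well for CG12910 (1.02, with rises of 3.11 and 2.09), CG9541 (1.24, 2.80 and 1.56), CG15822 (1.32, 2.68 and 1.36), Ect3 and 1 probe set that matches several genes, and it was below 0 for gcm. Of these 7, the interaction was called for Ect3 alone.

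Nagk showed the pattern on each array. It read 8.56, 8.70, 8.50 and 8.08 in sorted controls and 11.05, 11.29 and 11.28 in sorted gcm cells, against 8.06, 7.97 and 8.09 in whole controls and 9.96, 9.57, 9.76 and 9.67 in whole gcm embryos. All gcm arrays were above all controls, control levels were near each other in the preparations, and no whole gcm array reached a sorted gcm array. For the array labelled whole control 3 it was 10.63, above the whole gcm arrays, and with it kept the interaction of Nagk was 1.69 (limma adjusted p = 0.667).

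For the probe sets of the other 7, the 95% interval of the interaction included 0. Dnd, known in the fly as an Arf-like GTPase gene, rose by 1.58 and 1.37, an interaction of 0.20 (95% interval -0.40 to 0.80), Jhbp1 by 1.44 and 1.41, an interaction of 0.03 (-0.74 to 0.80), and CG32037 by 1.35 and 1.52, an interaction of -0.17 (-0.93 to 0.58). The homeobox gene aristaless (al) fell by 1.21 and 1.38, an interaction of 0.16 (-0.45 to 0.78), and meru by 0.89 and 0.88 at 1 of its 2 probe sets, an interaction of -0.02 (-0.56 to 0.53). The other probe set of meru fell by 1.18 in sorted cells with -0.36 in whole embryos, an interaction of -0.82 (-1.40 to -0.24). Nerfin-1, a zinc finger gene of newborn neurons, fell by 1.92 in sorted cells and by 1.32 in whole embryos, an interaction of -0.60 (-1.33 to 0.13), and repo is given above. A second probe set of nerfin-1 fell by 1.17 in sorted cells with -0.16 in whole embryos, an interaction of -1.01 (-1.67 to -0.35, limma adjusted p = 0.243).

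Among the largest effects in 1 preparation, several had wide or 1-sided intervals without a call. In whole embryos, twine (twe), the cdc25 phosphatase of meiosis and early cycles, rose by 2.16 against a change of 0.08 in sorted cells, an interaction of -2.07 (95% interval -3.25 to -0.90, limma adjusted p = 0.211). Its sorted means, 4.91 in controls and 4.99 with gcm, were at background. CG13101 rose by 2.66 in whole embryos against 1.07 in sorted cells, an interaction of -1.60 (-2.47 to -0.72, limma adjusted p = 0.202). HipHop, a telomere-capping protein gene, fell by 1.17 in whole embryos, with -0.10 in sorted cells and an interaction of 1.06 (0.36 to 1.76, limma adjusted p = 0.248).

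Among falls in sorted cells, the tumour necrosis factor receptor gene grnd had an interaction of -0.92 (-1.59 to -0.24, limma adjusted p = 0.284). HGTX, a homeobox gene of motor neurons, had -1.75 and obst-A, a chitin-binding protein gene, -1.20, but their second probe sets gave -0.11 and -0.23. CG16786 had -1.13 (-1.92 to -0.35). In whole controls and whole gcm embryos the means of CG16786 were 4.59 and 4.36, below background. Those of the first probe sets of HGTX (5.06 and 4.85) and obst-A (5.34 and 4.86) were close to it, so falls of this size could not be read there. The falls in whole embryos of the forkhead gene fd96Cb (interaction 0.50, -0.10 to 1.09) and of CG3408 (0.19, -0.50 to 0.87) were accompanied by falls in sorted cells that were not called, and CG8353 had an interaction of 0.83 (0.14 to 1.53, limma adjusted p = 0.365).

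Lists of genes by cell type or function held 1 called interaction, that of Ect3, among 22 lists. Over all probe sets the median interaction was 0.01. Of 13 measured glial genes 10 were above 0 and none was called, with a median of 0.40, which was 0.25 over the mean of each gene's probe sets and 0.21 without whole control 1. The largest values were those of moody, a receptor of the blood-brain barrier glia, which rose by 1.88 in sorted cells with 0.58 in whole embryos (interaction 1.29, SE 0.33, limma adjusted p = 0.202), and of htl, an FGF receptor, which rose by 0.97 with 0.33 in whole embryos (0.64, SE 0.21, limma adjusted p = 0.258). Moody read 8.34, 8.03, 7.85 and 8.20 in sorted controls, 10.03, 9.75 and 10.17 in sorted gcm cells, 6.08, 6.24 and 5.92 in whole controls and 7.41, 6.65, 6.34 and 6.26 in whole gcm embryos. The sorted groups stood far apart, and in whole embryos the gcm array with replicate number 1 was well above the other gcm arrays. Moody was at 9.79 on the array labelled whole control 3, and with it kept the interaction was 2.23 (limma adjusted p = 0.721). The list's median change was -0.07 in sorted cells and -0.27 in whole embryos. Of the 13, 3 were called higher in sorted cells (repo, moody and htl) and 1 in whole embryos (repo). Over all probe sets the shares called higher were 0.508% and 0.365%.

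The lysosomal sugar catabolism list, with 11 measured genes, had a median of 0.24, and both Ect3 and Nagk belong to it. Both were known from earlier results of these data when the list was drawn up. The engulfment and scavenger list had a median of 0.03 over 11 genes. NimC4 and Sr-CII, a scavenger receptor gene with an interaction of 1.68 (SE 0.35, limma adjusted p = 0.130), had the smallest p of its positive members, and ced-6, an engulfment adaptor gene, had an interaction of -1.71 (SE 0.70, limma adjusted p = 0.394). The 18 hemocyte genes had a median of -0.09 and no member at an unadjusted p under 0.05, a level that 10.5% of all probe sets reached. In Sr-CII the change was 0.98 in sorted cells and -0.69 in whole embryos, neither of them called.

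Of 20 germ cell and maternal genes 5 were above 0, with a median of -0.21 (-0.38 without whole control 2, -0.34 without whole gcm 4, -0.14 without whole gcm 2 and -0.09 without sorted gcm 2) and a median change of 0.14 in whole embryos and -0.10 in sorted cells. At an unadjusted p under 0.05, 6 were lower and none was called: swa, tor, twe, bicoid (bcd, -1.52), plu (-1.71), which drives the nuclear cycles of the egg, and the translational repressor pum (-1.09). Over all probe sets 4.89% were lower at that level. Bicoid read 4.37, 4.71, 4.49 and 4.42 in sorted controls, 5.05, 4.66 and 4.08 in sorted gcm cells, 5.74, 6.31 and 5.54 in whole controls and 7.57, 7.95, 7.16 and 7.25 in whole gcm embryos. The whole gcm arrays were above all whole controls, and sorted levels were at background. The sorted means of plu, 4.70 in controls and 4.38 with gcm, were below background as well. The markers fixed for germ cells (nos, vas and pgc) summed to 64.3 to 140 in whole controls and 108 to 130 in whole gcm embryos, overlapping ranges.

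Of 12 tracheal genes 1 was above 0, with a median of -0.49 and medians of -0.69 in sorted cells and -0.22 in whole embryos. Kni, a nuclear receptor gene, fell by 1.05 in sorted cells (limma adjusted p = 0.00689) with -0.52 in whole embryos (interaction -0.53, SE 0.25), and sano fell by 0.85 with -0.28 in whole embryos (-0.57, SE 0.21). Dpy, which encodes a giant protein of the apical matrix, had -1.01 (SE 0.46). None of these interactions was called, with limma adjusted p-values of 0.319 to 0.475.

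Of 37 cytosolic ribosomal protein genes 32 were above 0, with a median of 0.24 and no call, and their median change was 0.24 in sorted cells and 0.02 in whole embryos. These values rested on sorted gcm 2, which had the highest level of the 3 sorted gcm arrays in 33 of the 37, against 37.7% of all probe sets. Without it 15 of the 37 were above 0, with a median interaction of -0.06 and a median change of 0.01 in sorted cells, and without sorted gcm 4 the median interaction was 0.46. On the values as deposited the median interaction of all probe sets was 0.235, and relative to it the ribosomal list stood at 0.263, the glial list at 0.427, the tracheal list at -0.250 and the germ cell and maternal list at -0.193. Relative to all probe sets, the septate junction list (0.161) and the list of endoderm, yolk and amnioserosa (0.050) had the opposite sign on that scale. The 16 genes of the Notch pathway and E(spl) complex had a median of 0.20, with medians of 0.04 in sorted cells and -0.30 in whole embryos. Sorted gcm 2 was the highest sorted gcm array in 11 of the 16, and the median was 0.03 without it, 0.52 without sorted gcm 4, 0.09 without sorted gcm 1 and 0.30 without whole gcm 1. Relative to all probe sets it was 0.188, and 0.473 on the deposited scale. Median centring leaves this relative value the same by construction, so it is not a second check. E(spl)m2-BFM (0.84, SE 0.26) and E(spl)m5-HLH (0.91, SE 0.38), both Notch targets, had the smallest p and were not called. Septate junction genes had a median of -0.04 over 14 genes. Within them, vari, a scaffold protein gene, had -2.55 (SE 0.60, limma adjusted p = 0.186) and pck, a claudin gene, 0.76 (SE 0.21, limma adjusted p = 0.230).

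The median lay close to 0 for genes of neurons (22, -0.04), of neuroblasts and neuroectoderm (28, 0.08), of the epidermis and cuticle (11, -0.05), of endoderm, yolk and amnioserosa (11, -0.03) and of the segment polarity and pair rule classes (14, 0.10). Single members ranged from -1.75 to 0.95 among neuron genes. Among neuroblast genes they ranged from -0.66 to 2.25, that of mira (SE 1.01, limma adjusted p = 0.457). Of the 22 neuron genes, 4 were called lower with gcm in sorted cells and 1 in whole embryos. Over all probe sets the shares called lower were 0.265% and 0.0788%. Among the neuron genes, nrm, a cell adhesion gene, fell by 1.11 in sorted cells with 0.02 in whole embryos, an interaction of -1.12 (SE 0.34, limma adjusted p = 0.243). Its whole embryo means, 4.70 in controls and 4.71 with gcm, were below background, so a fall there could not be read. The neuroblast gene l(1)sc had an interaction of 1.04 (SE 0.38, limma adjusted p = 0.318) and hb one of -0.66 (SE 0.28, limma adjusted p = 0.413). The median was 0.26 for 10 mesoderm and muscle genes, 0.28 for 10 EGFR and FGF signalling genes, 0.18 for 12 cell cycle genes, -0.16 for 7 salivary gland genes, -0.13 for 7 tendon cell genes, -0.20 for 6 apoptosis genes, -0.05 for 8 immediate early and JNK response genes and 0.08 for 7 heat shock genes. With each array left out in turn, the median changed sign for the engulfment, hemocyte, septate junction, neuron, neuroblast, epidermis, endoderm, heat shock, immediate early and ribosomal lists, and kept its sign for the other 12.

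**Figure D5:**
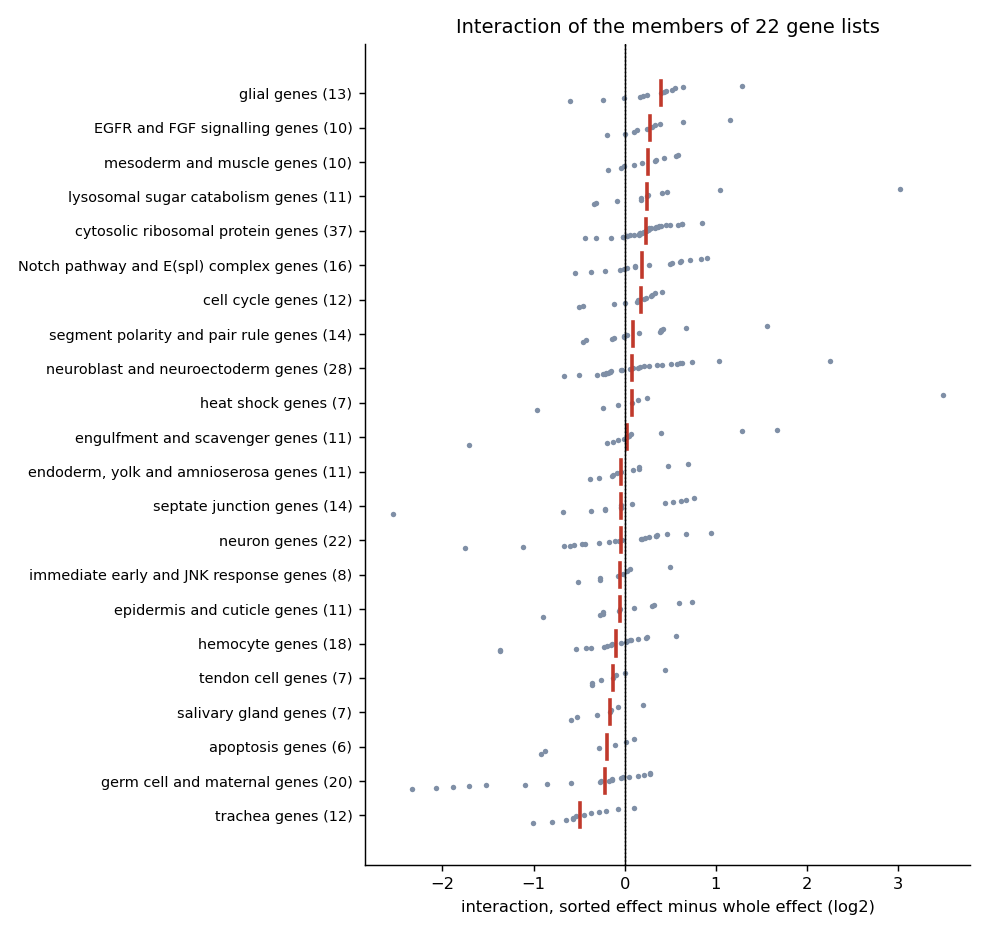
Interaction on the log2 scale of each measured member of 22 gene lists (points), with the list's median in red, the number of measured genes in brackets, 0 as a solid line and the median of all probe sets, 0.01, dotted. The medians run from -0.49 for trachea genes to 0.40 for glial genes, an order that depends on the scaling and on the choice of probe set. The point at 3.02 in the sugar catabolism list is Ect3.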

How the data were processed

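The authors deposited linear intensities, 1 for each probe set on each array; their computation and scaling are not given in the sources used. Array medians ran from 31.8 to 58.4, 28.2% to 35.9% of probe sets were below 16, and the trimmed means (2% to 98%) differed 2.48-fold. The number of arrays limits the precision.

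The 14 arrays were quantile normalised together and taken as log2(intensity + 16), and 44 control probe sets were left out. In R 4.3.3, limma 3.58.1 fitted 1 mean per group and an intensity trend in the variances. Tests are two-sided and Benjamini-Hochberg adjusted over 13966 probe sets, and an adjusted p under 0.05 is a call. The script was tested on simulated data.

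The platform annotation, whose symbols can be old, named 12443 probe sets by 1 symbol and 327 by several, and left 1196 unnamed; 12398 of the 12443 matched a gene of assembly release 6. Of 10844 genes, 1209 have several probe sets. Named genes are gcm, gcm2 and repo, calls in the interaction filled to 12 per direction by smallest p (highest group mean of at least 6), up to 2 genes per list by p, and the 6 largest rises and falls of each effect, each at its probe set of smallest p. Lists use the probe set of highest mean and were described, not tested. Other genes, and those of the closing section, were chosen after their values were seen. The comparison and lists were chosen with earlier results of these data known.

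The labels do not say whether replicates came from separate embryo collections, so p-values measure the spread between these arrays, which may be technical. Equal replicate numbers were checked by correlating residuals. Whole control and whole gcm arrays of the same number had correlations of 0.34, 0.27 and 0.20, against 0.29 for whole control 4 with whole gcm 3, the highest pair of unequal numbers. The number was therefore also set as a block, in a fit of all 14 arrays with the sorted arrays included. Sorted pairs of the same number ran from -0.04 to 0.22. Same-number pairs of a sorted and a whole embryo array ran from -0.175 to 0.122. The block is thus no test of pairing within whole embryos alone, and the main fit took no pairs. Alternatives were the pseudocount, scaling, a filter on dim probe sets, the variance model, array weights, the block, the array labelled whole control 3, the duplicate and each array left out.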

Additional observations from a re-analysis of the deposited data

Results flagged for a closer look

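The difference of the gcm effect between sorted cells and whole embryos passed its test for Ect3 (3.02), Sardh (2.19), MFS16 (1.99) and CG3841 (1.5), as log2 interactions.

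The array labelled whole control 3, which did not enter the main comparison, read above the other 3 whole controls, normalised with all 15 arrays, for gcm (13.10 against 8.07 to 8.66), repo (10.77 against 6.14 to 6.32), Ect3 (11.20 against 7.90 to 8.60), Sardh (5.61 against 4.89 to 4.91) and CG3841 (5.0 against 4.06 to 4.27).

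By a Dixon test at 95% within groups of 4 arrays, 6 of 160 gene and group pairs had an array apart from the others (3.75%, where chance gives about 5%). Whole gcm 1 was apart for gcm (11.25 against 10.53 to 10.65), rtet (7.10 against 8.16 to 8.30) and puc (6.98 against 6.39 to 6.4). Sorted control 2 was apart for Sardh (5.27 against 4.71 to 4.75) and RpS28a (5.46 against 4.51 to 4.56), and sorted control 1 for CycB (9.96 against 9.85 to 9.86).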

How the results depend on the processing

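The 4 called interactions became 2 with a pseudocount of 1, median centring, quantile normalisation within each preparation or the dimmest 40% of probe sets left out, 7 with a pseudocount of 64, 49 (27 positive, 22 negative) with array weights, 18 (13 positive, 5 negative) with both copies of the duplicated array and 1 with the array labelled whole control 3 kept. With the replicate block they were 2, whichever number the duplicate had. Leaving out 1 array gave 2 to 64. The 108 sorted calls became 58 on deposited values, 54 with median centring, 17 with whole control 3 kept, 281 with both copies and 37 with sorted arrays alone, and 56 to 183 without 1 array. The 62 calls of the gcm effect in whole embryos became 23 and 158 with pseudocounts of 1 and 64, 27 on deposited values, 100 with median centring, 126 with normalisation within preparations, 141 without dim probe sets, 35 without the intensity trend, 1127 with array weights, 110 with the block (duplicate as 3), 8 with whole control 3 kept, 123 with both copies and 14 with whole arrays alone, and 10 to 462 without 1 array. The causes were not tested.

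Interactions that changed sign were those of gcm (0.29), mew (0.36), puc (0.29) and RpLP0-like (-0.20) with whole control 3 kept, nerfin-1 (0.19) and mew (0.17) on deposited values, al (-0.24) and CG3408 (-0.073) with a pseudocount of 64, and fkh (0.15) with array weights and without sorted gcm 2 (range without 1 array -0.885 to 0.121). Over all named genes and settings, 2042 interactions kept direction and side of the threshold, 65 gained and 33 lost a call, and 10 changed sign. The number of arrays limits all counts.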

Other observations

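Sorted controls differed among themselves in several abundant transcripts. Hsc70-4, the constitutive Hsp70 chaperone, had the largest interaction of all probe sets, 3.49, but with a standard error of 1.34 and a limma adjusted p of 0.348. It read 6.42, 9.46, 5.61 and 11.69 in the 4 sorted controls and between 11.58 and 12.03 on the other 10 arrays of the comparison, while the array labelled whole control 3 read 6.11. The level ran over the sorted controls from near that of sorted gcm cells to far below it.

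SmD3 and snRNP-U1-70K, chosen after their values were seen, were also highest among the sorted controls in sorted control 4. SmD3, a core protein of the spliceosomal small ribonucleoproteins, read 6.67, 6.4, 5.6 and 7.76 in sorted controls and 7.85, 8.02 and 7.46 in sorted gcm cells, and snRNP-U1-70K, a subunit of the U1 particle, read 7.05, 7.81, 7.36 and 9.46, then 9.03, 9.43 and 9.73. Their interactions of 1.94 and 1.78 were not called (limma adjusted p = 0.202 and 0.248). Without sorted control 4 they were 2.34 and 2.30 and were called (limma adjusted p = 0.0190 and 0.00503), as was that of CNBP, a nucleic acid-binding protein gene, with 3.74 (limma adjusted p = 0.0354).

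Smg, the translational repressor that clears maternal transcripts, had the lowest interaction of all probe sets, -2.73 (SE 0.74, limma adjusted p = 0.222). It read 5.39, 6.01, 6.63 and 4.82 in sorted controls, 5.58, 5.21 and 5.57 in sorted gcm cells, 7.38, 9.49 and 6.66 in whole controls and 10.02, 11.00, 9.88 and 10.33 in whole gcm embryos. Whole gcm arrays were all above the whole controls, of which whole control 2 was the highest.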
